A study of Mus musculus with 6 samples.

Results

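The matrix metalloproteases (Mmp), the secreted ADAMTS proteases, the ADAMTS-like proteins (Adamtsl) and the tissue inhibitors of metalloproteases (Timp) were examined in the outer eye wall of aged mice, 49 genes of 22180 measured. They were taken by gene symbol from the platform annotation, which gave 22 Mmp, 18 Adamts, 5 Adamtsl and 4 Timp genes, each read from 1 probe set that carries 1 symbol. Where a gene had several probe sets the one of highest mean over all 6 arrays was kept. The tissue was the retinal pigment epithelium (RPE) dissected along with choroid and sclera, from untreated mice aged 12 months, 3 from heterozygous 5XFAD mice and 3 from wild-type littermates without the transgene. The 5XFAD line carries mutant human amyloid precursor protein and presenilin transgenes that are driven by neuronal Thy1 regulatory sequence, so that expression in the RPE, choroid or sclera is not a given of the model. The series title links the line to changes that resemble dry macular degeneration. Each sample was hybridised to 1 array, the labels do not say whether each sample is 1 animal. The p-values thus rest on sample-to-sample spread alone, some of which may be technical.

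Matrix metalloproteases are zinc enzymes that are made as inactive precursors and, once activated, cut collagens, laminins, elastin and other matrix proteins. ADAMTS enzymes are related secreted proteases with thrombospondin repeats, and they trim procollagens, cut the large proteoglycans aggrecan and versican, or act on the microfibrils built from fibrillin. ADAMTS-like proteins carry the thrombospondin repeats without a protease domain. The Timps block most metalloproteases by filling the catalytic cleft, and Timp3, which the RPE secretes into Bruch's membrane, also inhibits several ADAMTS enzymes and is the gene mutated in Sorsby fundus dystrophy.

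All values are normalized log2 intensities, on which a difference of 1 is a doubling, and differences are 5XFAD minus wild type. Per-array medians over all probe sets ran from 5.59 to 5.71. The dissection was checked against marker lists. Markers of the RPE (12 genes) had a median at percentile 99.2 of all gene means and those of fibroblasts and sclera (10 genes) at percentile 98.8. Endothelial (8 genes) and macrophage (10 genes) markers stood at percentiles 93.0 and 95.1. A list for surface epithelium, tissue that the dissection can carry along, had a mean over the 11 measured genes of 6.48 to 7.12 in 5XFAD. In wild type that mean was 5.74 to 5.78. Of the 11 genes 4 passed the adjusted threshold, the keratins Krt15, Krt4, Krt13 and Krt6a. The list was not uniform, with 8 genes higher and 3 lower (Perp -0.015, Dsp -0.185 and Aldh3a1 -0.066). RPE markers, of which 0 passed, had means of 10.27 to 10.44 against 10.65 to 10.80, and skeletal muscle markers (12 genes) 6.25 to 7.61 against 5.50 to 7.03. The surface epithelium and RPE lists thus separated the groups without overlap, and muscle did not. In bulk tissue, fewer cells of a type and less RNA per cell cannot be told apart.

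**Figure D1:**
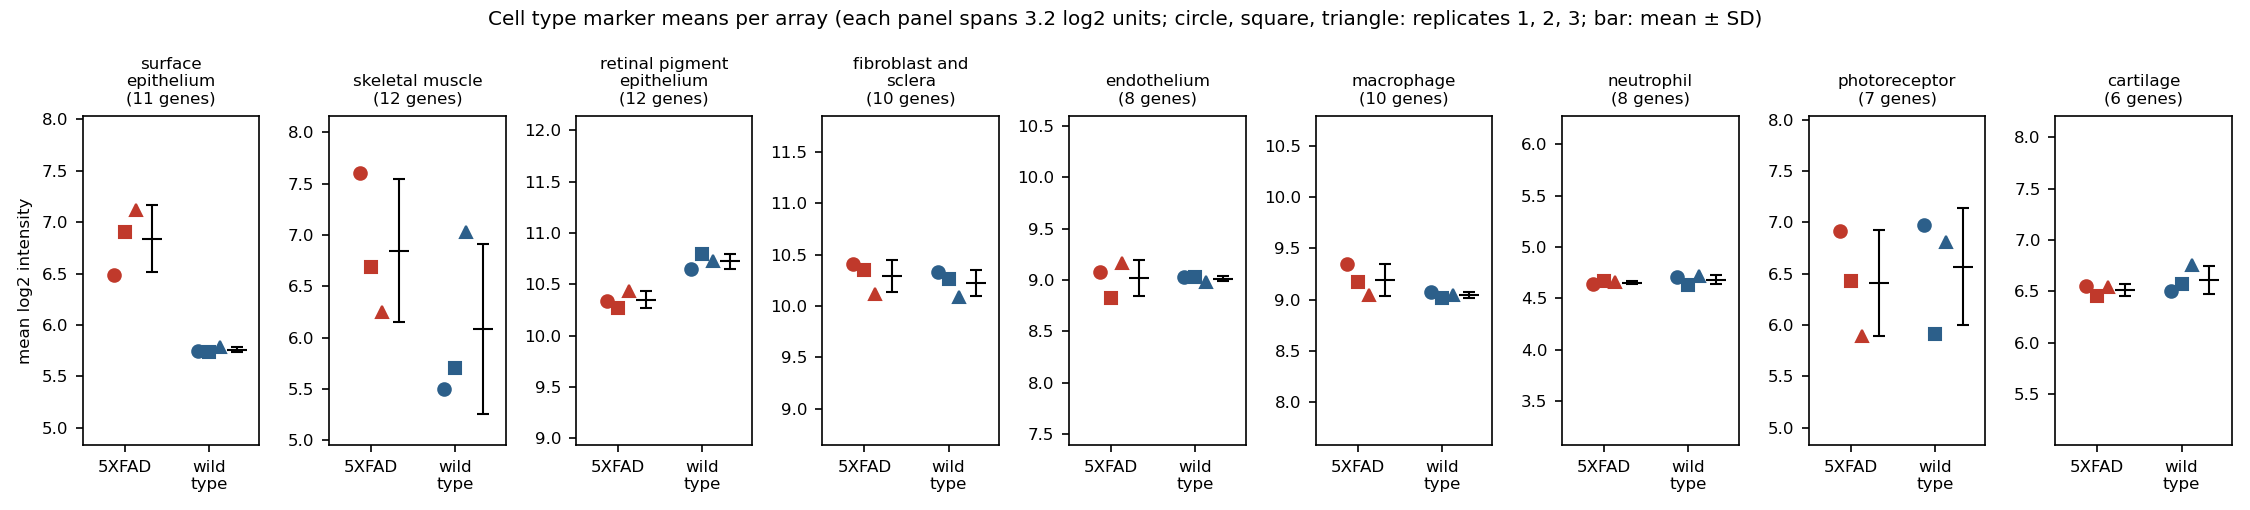
Mean log2 intensity of 9 marker lists on each array, with 5XFAD in red and wild type in blue; circles, squares and triangles are replicates 1, 2 and 3, and the black mark is the mean with its SD. Surface epithelium is the list whose 5XFAD arrays (6.48 to 7.12) lie above the wild-type arrays (5.74 to 5.78), and the RPE list lies below (10.27 to 10.44 against 10.65 to 10.80).

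Neither the proteases nor the inhibitors held a gene that passed the test. In limma, which compared the groups over all 22180 genes, 0 of 49 members reached a Benjamini-Hochberg adjusted p under 0.05, where 0.0225% of all genes did. At an unadjusted p under 0.05, 4 members were higher in 5XFAD (Adamts6, Adamts5, Adamts16 and Mmp8) and 1 was lower (Mmp28). These are 8.16% and 2.04% of the members, beside 2.89% and 3.39% of all genes. A fold of at least 1.5 at that p was met by 2 members, Adamts5 and Adamts16, beside 0.717% of all genes. Groups were fully separated in 3 members that were higher (Adamts6, Adamts16 and Timp1) and 2 that were lower (Mmp28 and Adamtsl4), beside 4.72% and 6.62% of all genes, and in 44 members the groups overlapped. The count of 5 members at an unadjusted p under 0.05 was 3 with 5XFAD replicate 1 left out, and it was 8 with wild type replicate 2 left out. The count of 2 members with the fold was 1 without 5XFAD replicate 2, and likewise 1 without either replicate 1 or replicate 3 of the wild type.

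As classes, the genes lay close to no difference. The median difference was -0.03 over the 22 Mmp genes, 0.02 over the 18 Adamts genes, -0.01 over the 5 Adamtsl genes and 0.07 over the 4 Timp genes, beside -0.01 over all genes. Of the 49 members 25 had a positive difference and 24 a negative one, beside 10478 and 11702 of all 22180 genes. A difference of less than 0.25 was found in 44 members, beside 19877 of all genes, so the small sizes are not particular to the members. For a member of median precision the 95% interval, before correction for the number of genes, reached 0.28 to either side of its estimate. Smaller differences were thus not resolved with 3 arrays per group. Larger ones could also miss the adjusted threshold, as Adamts16, Adamts5 and Adamts6 did at 0.75, 0.62 and 0.55.

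**Figure D2:**
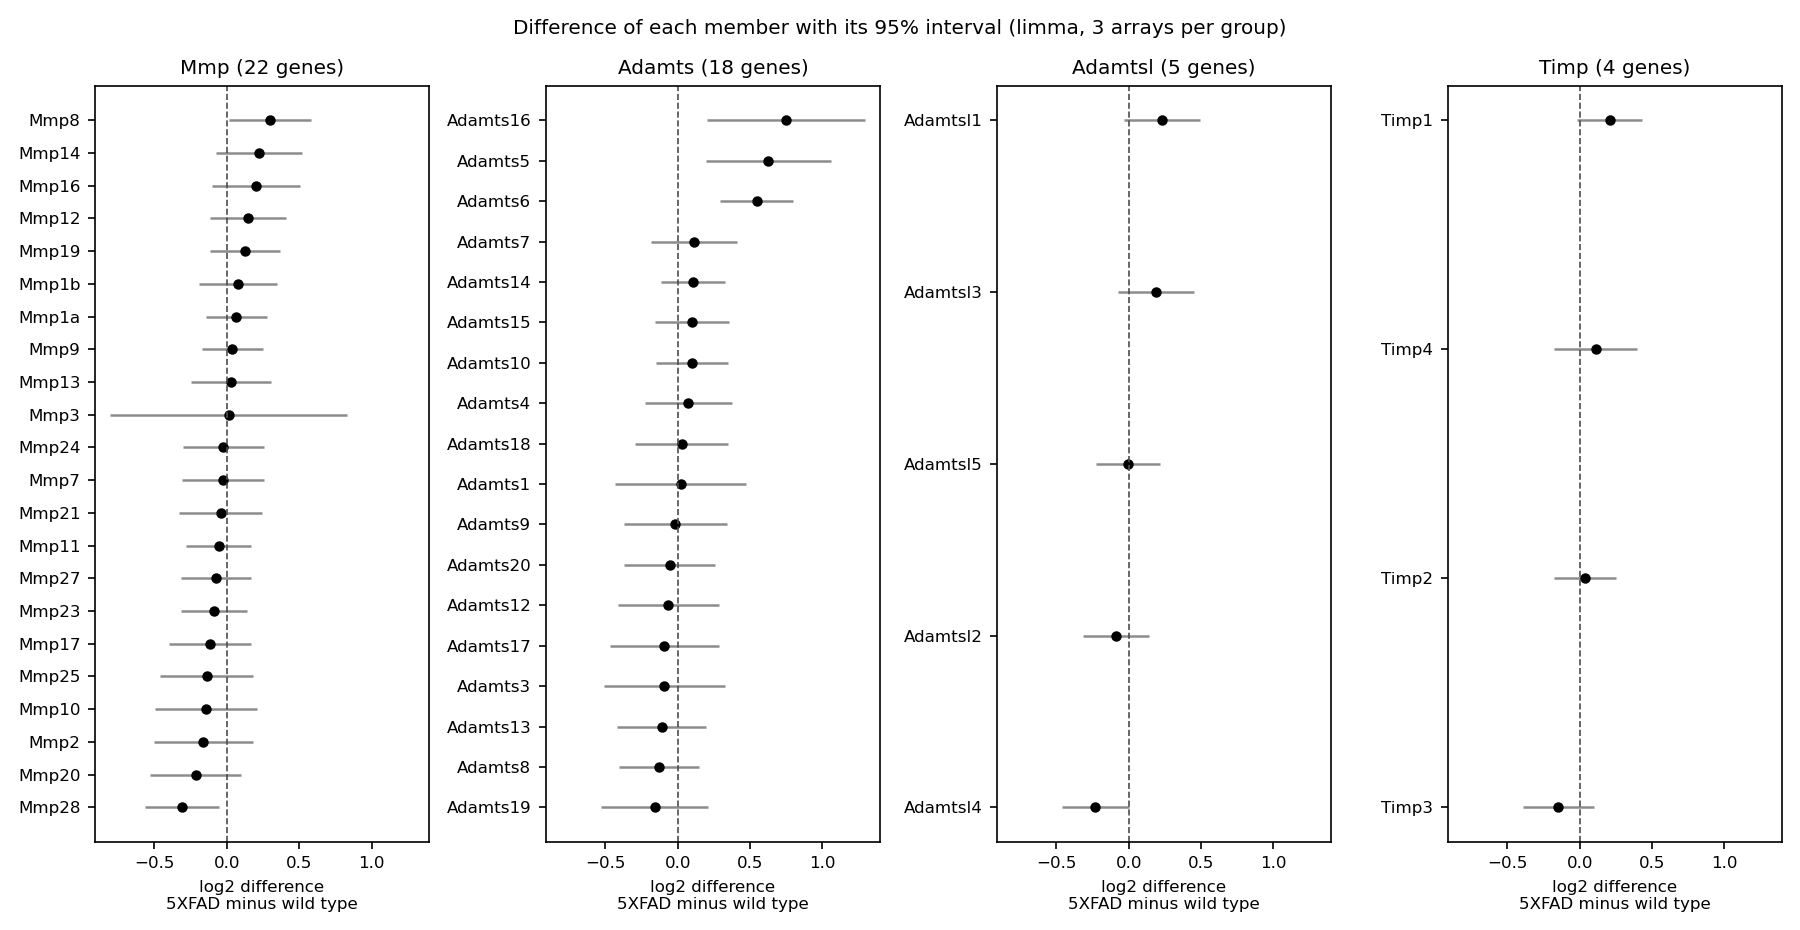
Log2 difference (5XFAD minus wild type, horizontal axis) of each of the 49 members, in 1 panel per class; points are limma estimates, bars their 95% intervals, and the dashed line marks no difference. Adamts16, Adamts5 and Adamts6 stand furthest to the right (0.75, 0.62 and 0.55), Mmp28 furthest to the left (-0.31), and Mmp3 has the widest bar (-0.81 to 0.83).

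Among the inhibitors, Timp3 read 12.33, 12.16 and 12.35 on the 5XFAD arrays and 12.28, 12.51 and 12.48 on the wild-type arrays. The lowest value was 5XFAD replicate 2, and the groups overlapped through wild type replicate 1. The difference was -0.15 ± 0.11 (log2, ± SE), with a 95% interval from -0.40 to 0.10 (limma, Benjamini-Hochberg adjusted p = 0.92). Timp3 is a gene of the RPE, and the RPE marker list was lower in the same 5XFAD arrays; its part in the Timp3 value was not tested.

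Timp2, which besides inhibiting metalloproteases docks the precursor of Mmp2 to the membrane protease Mmp14, was close to flat. Its values were 11.14, 11.07 and 11.10 in 5XFAD and 10.99, 11.07 and 11.13 in wild type, a difference of 0.04 ± 0.10 with an interval from -0.18 to 0.25. Timp1, a secreted inhibitor that is induced in inflamed and healing tissue, read 6.46, 6.35 and 6.37 against 6.19, 6.27 and 6.09. All 3 5XFAD arrays lay above the wild-type arrays by a small margin, and the difference of 0.21 ± 0.10 did not pass (limma, Benjamini-Hochberg adjusted p = 0.82). Timp4 read 6.15, 6.19 and 5.86 against 5.99, 6.09 and 5.80, with overlap and a difference of 0.11 ± 0.13. In the RefSeq annotation Timp1, Timp3 and Timp4 each lie inside a synapsin gene, Syn1, Syn3 and Syn2 in that order. The probe sets of these host genes differed by -0.19, -0.01 and -0.17 (limma, lowest Benjamini-Hochberg adjusted p = 0.92). Timp2 overlaps Cep295nl, whose probe set differed by -0.15.

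Mmp2 and its activator had differences of opposite sign. Mmp14, a membrane-bound collagenase that activates Mmp2, read 10.23, 9.83 and 9.92 in 5XFAD and 9.85, 9.84 and 9.61 in wild type. The highest value was 5XFAD replicate 1 and the lowest wild type replicate 3, with the others interleaved. The difference of 0.23 ± 0.13 had an interval from -0.07 to 0.52 (limma, Benjamini-Hochberg adjusted p = 0.89). Mmp2, the gelatinase of fibroblasts and of the RPE, read 9.27, 9.47 and 9.03 against 9.63, 9.46 and 9.17, a difference of -0.16 ± 0.15 and an interval from -0.50 to 0.18. Replicate 3 was the lowest array of both groups. Neither passed, and the difference between the genes was not tested. Mmp14 exceeded its pooled SD of 0.18 and Mmp2 did not exceed its own of 0.23. The Mmp14 difference was 0.11 without 5XFAD replicate 1, 0.15 without wild type replicate 3 and 0.85 with the surface epithelium mean as a covariate.

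Mmp9, the gelatinase of leukocytes, lay at percentile 27.7 of all gene means on arrays that agreed closely. Its values were 4.83, 4.86 and 4.88 in 5XFAD and 4.84, 4.85 and 4.76 in wild type, a difference of 0.04 ± 0.09 with an interval from -0.17 to 0.25. Its pooled SD stood at percentile 1.2 of all genes. Mmp8, the collagenase of neutrophils, read 5.14, 5.31 and 4.95 against 4.81, 4.70 and 4.98, so that wild type replicate 3 lay inside the 5XFAD range. The difference of 0.30 ± 0.13 did not pass (limma, Benjamini-Hochberg adjusted p = 0.77). All 8 neutrophil markers were under percentile 40, with list means of 4.64 to 4.66 in 5XFAD and 4.63 to 4.71 in wild type.

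The only Mmp gene at an unadjusted p under 0.05 with a negative difference was Mmp28, also called epilysin, a metalloprotease of epithelia. It read 5.91, 6.21 and 6.19 in 5XFAD and 6.35, 6.42 and 6.48 in wild type. All 5XFAD values lay below all wild-type values, with 5XFAD replicate 1 lowest, and the difference was -0.31 ± 0.11 (limma, Benjamini-Hochberg adjusted p = 0.71). The surface epithelium list mean was higher in the same 5XFAD arrays, so Mmp28 and that mean stood in opposite order. The RPE list mean (10.27 to 10.44 against 10.65 to 10.80) was lower in these arrays, as Mmp28 was. The part of the RPE list in the Mmp28 value was not tested. With the surface epithelium mean as a covariate the Mmp28 difference was -0.83, a value that cannot separate genotype from that mean, which does not overlap between the groups. Mmp28 overlaps 1700020L24Rik, whose probe set differed by -0.13.

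Mmp3, or stromelysin 1, which cuts proteoglycans and activates other Mmp precursors, varied more between replicates than any other member. Its values were 10.17, 10.44 and 8.83 in 5XFAD and 10.18, 9.69 and 9.52 in wild type. 5XFAD replicate 3 was more than a log2 unit below the other 2 arrays of its group. The pooled SD of 0.66 stood at percentile 99.6 of all genes. The difference was 0.01 ± 0.36, with an interval from -0.81 to 0.83, and without 5XFAD replicate 3 it was 0.50 (limma, Benjamini-Hochberg adjusted p = 0.73). Leaving out any other array moved it no lower than -0.30. On 5XFAD replicate 3 the fibroblast list had its lowest 5XFAD mean (10.11, against 10.35 and 10.41). That list was lower still on wild type replicate 3 (10.09), where Mmp3 read 9.52. The part of the fibroblast list in the Mmp3 value was not tested.

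**Figure D3:**
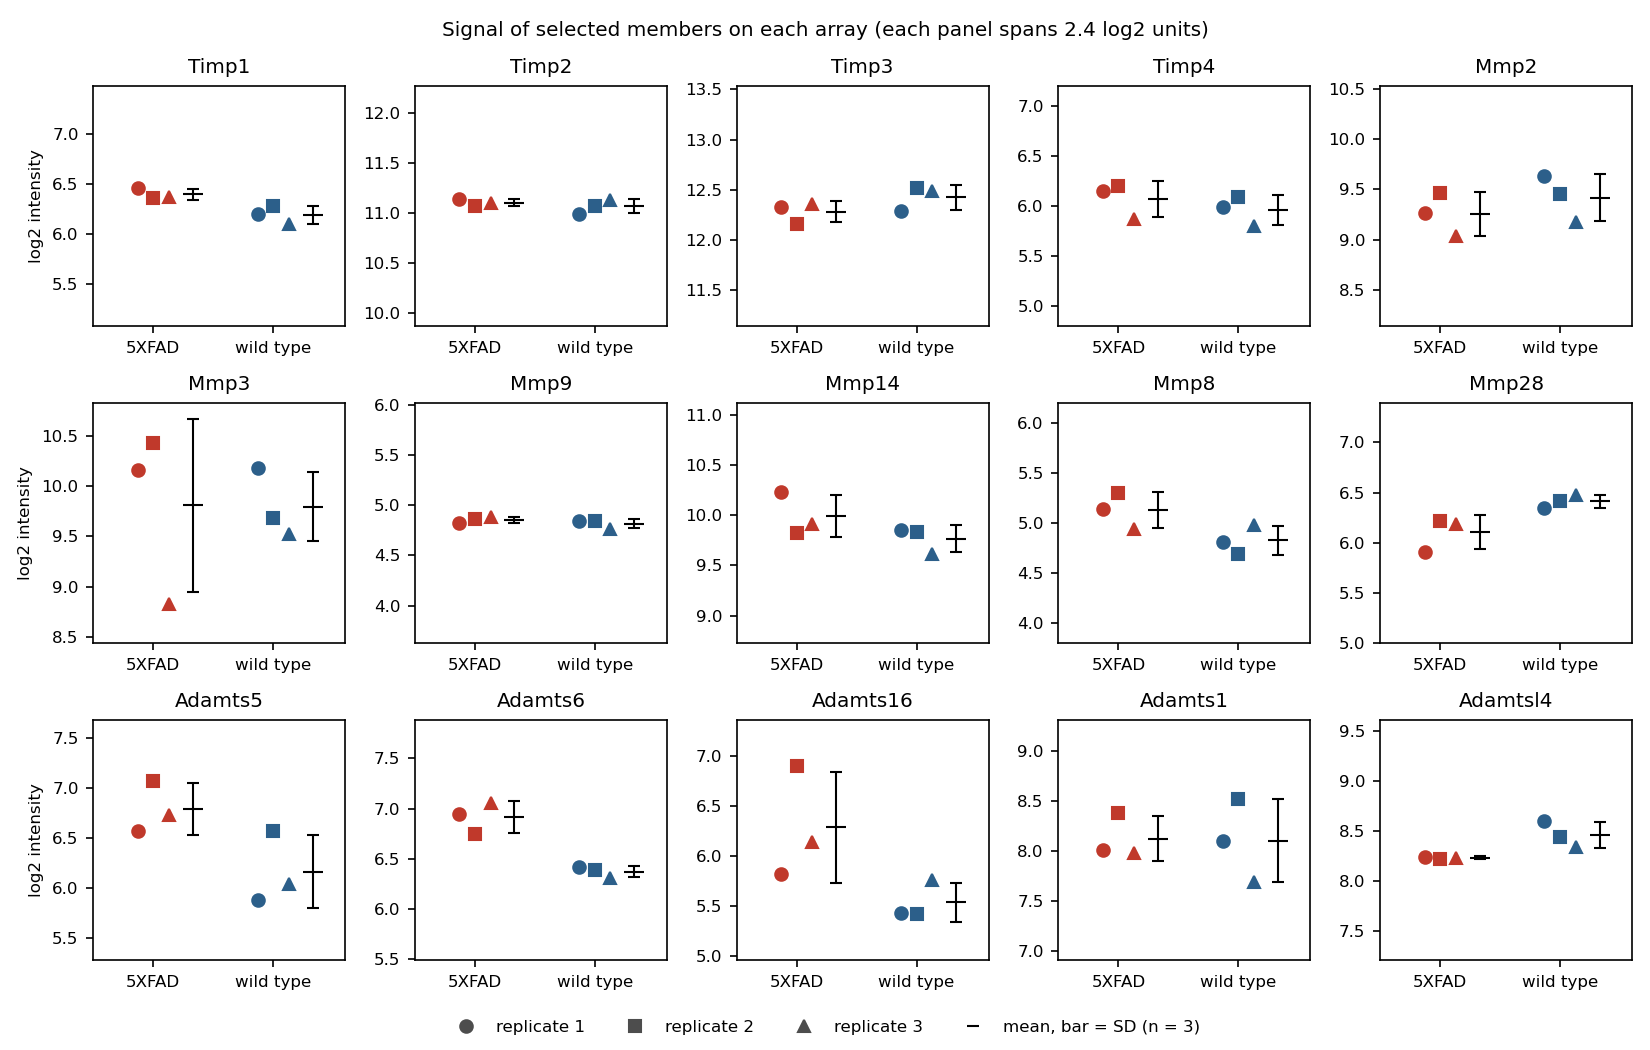
Log2 intensity of 15 members on each array, with 5XFAD in red and wild type in blue; circles, squares and triangles are replicates 1, 2 and 3, the black mark is the mean with its SD (n = 3), and every panel spans the same range of the axis. The groups are apart in Adamts6, Adamts16 and Timp1 (5XFAD above) and in Mmp28 and Adamtsl4 (5XFAD below), and 5XFAD replicate 3 stands low for Mmp3 (8.83).

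A run of 10 Mmp genes, Mmp13, Mmp12, Mmp1b, Mmp3, Mmp1a, Mmp10, Mmp8, Mmp27, Mmp20 and Mmp7, follows without a gap in the RefSeq order of protein-coding genes on mouse chromosome 9. Several of them are known targets of AP-1, the Fos and Jun transcription factor pair, through a site shortly before the gene start. RefSeq promoter windows of the GRCm38.p6 build, 250 bases before to 50 after a start, were found for 34 members. The motif TGAGTCA on either strand (TGACTCA when read in reverse), the only motif searched, was in the windows of 7 of the 10 genes of the run. It was in 0 of 7 other Mmp, 0 of 9 Adamts, 0 of 4 Adamtsl and 0 of 4 Timp genes with a window, beside 5.95% of all 27025 genes with one. Counted by window it was in 7 of 12 of the run and in 5.20% of all 32851. A match describes the letters and is not a measured binding site.

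The stretches that hold the motif are shown because it is a feature that 7 of the 10 neighbouring genes share beyond their position. Each holds 100 bases that end shortly before the start, 5′ to 3′ on the gene's own strand, with the motif in capitals (for Mmp13 its reverse complement).
Mmp13 (chr9:7272404-7272503, plus strand): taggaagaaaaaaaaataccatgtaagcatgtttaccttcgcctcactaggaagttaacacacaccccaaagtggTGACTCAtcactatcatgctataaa
Mmp12 (chr9:7347264-7347363, plus strand): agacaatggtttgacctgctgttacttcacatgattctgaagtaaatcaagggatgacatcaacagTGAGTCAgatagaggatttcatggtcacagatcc
Mmp1b (chr9:7388037-7388136, minus strand): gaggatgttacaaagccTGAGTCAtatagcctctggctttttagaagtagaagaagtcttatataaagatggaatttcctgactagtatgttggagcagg
Mmp3 (chr9:7445712-7445811, plus strand): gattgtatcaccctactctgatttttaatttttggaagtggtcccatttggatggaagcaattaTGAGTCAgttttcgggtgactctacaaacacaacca
Mmp1a (chr9:7464031-7464130, plus strand): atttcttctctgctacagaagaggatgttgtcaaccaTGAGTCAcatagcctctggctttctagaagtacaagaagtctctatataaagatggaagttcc
Mmp10 (chr9:7502232-7502331, plus strand): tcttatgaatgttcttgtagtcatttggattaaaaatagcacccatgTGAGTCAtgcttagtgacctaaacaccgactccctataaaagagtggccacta
Mmp7 (chr9:7691980-7692079, plus strand): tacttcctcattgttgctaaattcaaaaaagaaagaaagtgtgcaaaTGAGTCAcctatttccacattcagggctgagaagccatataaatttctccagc
The capitals begin 35 bases (Mmp13) to 93 bases (Mmp1b) before the annotated start. Mmp1a and Mmp1b are closely related copies, so their probe sets may share signal and their values are uncertain.

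Genes that share the motif were not seen to share a difference between the groups. Several of them were dim and the Mmp3 interval was wide, so a shared difference could have been missed. The 7 differences ran from -0.14 (Mmp10) to 0.15 (Mmp12), and 0 of them were at an unadjusted p under 0.05. Mmp12, the elastase of macrophages, singled out after its values were seen, read 9.03, 8.84 and 8.78 in 5XFAD and 8.89, 8.66 and 8.65 in wild type, with overlap and an interval from -0.12 to 0.41. The macrophage list mean was highest on 5XFAD replicate 1 as well (9.35, against 9.02 to 9.17 on the other arrays), and its part in the Mmp12 value was not tested. Mmp1a and Mmp1b, the mouse counterparts of interstitial collagenase, lay at percentiles 2.9 and 2.7 of all gene means with differences of 0.07 and 0.08. Mmp20, an enzyme of tooth enamel formation, was at percentile 21.6 with values of 4.15, 4.49 and 4.47 against 4.72, 4.35 and 4.68, and Mmp13, Mmp7 and Mmp10 lay at percentiles 24.2, 23.1 and 30.9.

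The remaining Mmp genes showed no more. Mmp16, Mmp17, Mmp24 and Mmp25, which like Mmp14 are bound to the membrane, differed by 0.20, -0.12, -0.02 and -0.14. Mmp15 was not among the 22 Mmp genes read. Mmp19, known as a protease of stromal and vascular tissue, differed by 0.12, Mmp11, also called stromelysin 3, by -0.06, and Mmp23, Mmp21 and Mmp27 by -0.09, -0.04 and -0.07. All 9 of these intervals included 0. In this class 11 of 22 genes lay under percentile 40 of all gene means.

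The ADAMTS proteases held the 3 largest positive differences of all members. Adamts6, a relative of Adamts10 that acts on the extracellular matrix during heart development, read 6.94, 6.74 and 7.06 in 5XFAD and 6.41, 6.39 and 6.31 in wild type. All 5XFAD arrays lay above the wild-type arrays, by more than the spread within either group. The difference of 0.55 ± 0.11, a 1.46-fold level, had an interval from 0.30 to 0.80 before any correction for the number of genes, and it did not pass after it (limma, Benjamini-Hochberg adjusted p = 0.28).

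Adamts5, the main aggrecanase of mouse cartilage, read 6.56, 7.07 and 6.73 against 5.88, 6.57 and 6.04. Replicate 2 was the highest array of both groups, and the groups met where 5XFAD replicate 1 and wild type replicate 2 lay within 0.02 of each other. The difference of 0.62 ± 0.19, a 1.54-fold level, did not pass (limma, Benjamini-Hochberg adjusted p = 0.60). Without wild type replicate 2 it was 0.83 (limma, Benjamini-Hochberg adjusted p = 0.16). Adamts4, the other classical aggrecanase, read 5.45, 5.16 and 5.37 against 5.33, 5.01 and 5.42, a difference of 0.07 ± 0.13.

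Adamts16, a protease studied in kidney and gonad, read 5.81, 6.89 and 6.14 in 5XFAD and 5.43, 5.41 and 5.76 in wild type. Its groups were apart by a narrow margin, and 5XFAD replicate 2 stood well above the others. The difference of 0.75 ± 0.24, a 1.68-fold level, did not pass (limma, Benjamini-Hochberg adjusted p = 0.64), and without 5XFAD replicate 2 it was 0.44 (limma, Benjamini-Hochberg adjusted p = 0.91).

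These 3 Adamts genes were higher in 5XFAD, where the surface epithelium list was higher and the RPE list lower. Within 5XFAD the surface epithelium mean was highest on replicate 3 (7.12), as Adamts6 was. Adamts5 and Adamts16 were highest on replicate 2. The part of the RPE list in these values was not tested. With the surface epithelium mean as a covariate the differences were 0.46 for Adamts6, 0.25 for Adamts5 and -0.16 for Adamts16. The list mean does not overlap between the groups, so the covariate and the genotype cannot be told apart, and the median standard error over the members rose from 0.13 to 0.37. With the skeletal muscle mean as a covariate the differences were 0.59, 0.72 and 0.77.

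**Figure D4:**
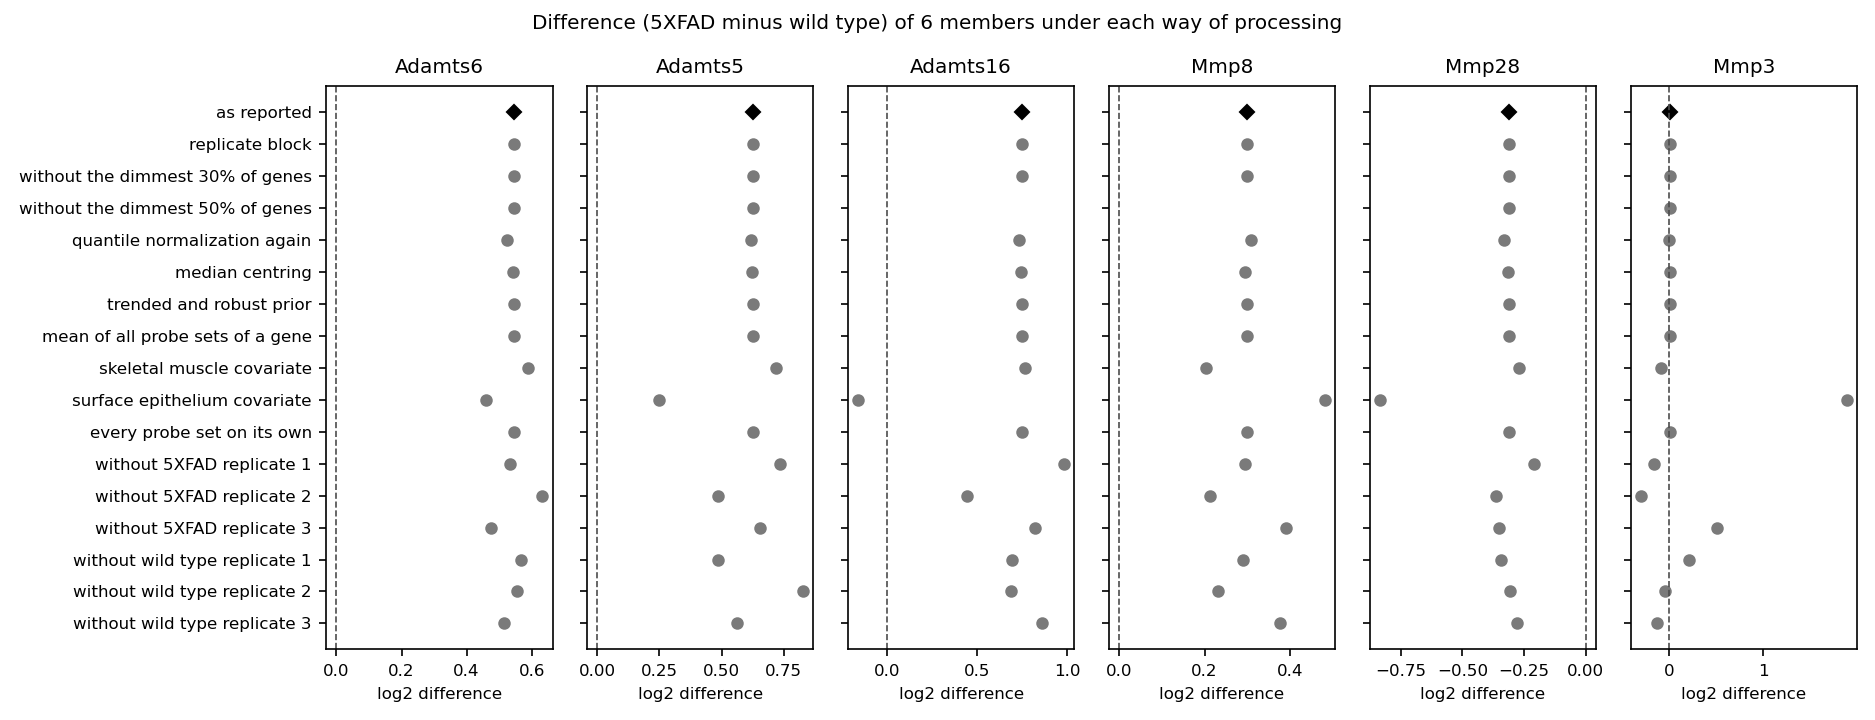
Log2 difference (5XFAD minus wild type, horizontal axis) of 6 members as reported (diamond) and under 16 other ways of processing (circles); a missing circle marks a gene left out by a filter on dim genes, and the axes differ between panels. Adamts6 lies between 0.46 and 0.63 throughout, Adamts16 falls to -0.16 with the surface epithelium covariate, and Mmp3 runs from -0.30 to 1.88.

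Adamts1 and Adamts5 are neighbours on mouse chromosome 16, and in the RefSeq order they follow App, the mouse gene of the amyloid precursor protein, with only Cyyr1 between. Adamts1, a protease of versican that acts in angiogenesis and ovulation, read 8.01, 8.38 and 7.98 against 8.09, 8.52 and 7.69. Replicate 2 was again the highest array of both groups, and the difference was 0.02 ± 0.20. App differed by 0.09 ± 0.13 and Cyyr1 by 0.05 ± 0.15, so that Adamts5 had the only difference over 0.2 in this run of 4 genes.

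Members of the family whose human counterparts are mutated in eye disease were flat or imprecise. Adamts10 and Adamts17, both linked to Weill-Marchesani-type disorders of the lens and fibrillin microfibrils, differed by 0.10 ± 0.11 and -0.09 ± 0.17. Their values were 7.94, 7.70 and 7.97 against 7.70, 7.81 and 7.81 for Adamts10, and 5.97, 5.61 and 6.07 against 5.67, 6.19 and 6.07 for Adamts17. Adamts18, linked to eye malformation and retinal dystrophy, read 5.19, 4.86 and 4.93 against 4.85, 4.82 and 5.24, with a difference of 0.03 ± 0.14. Each of these groups overlapped. Adamts9, a broadly made protease of versican, differed by -0.02 ± 0.16.

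The procollagen peptidases Adamts3 and Adamts14 differed by -0.09 and 0.11, and Adamts2 was not among the 18 Adamts genes read. Adamts13, which cuts von Willebrand factor, differed by -0.11, Adamts7 and Adamts12, which cut cartilage oligomeric matrix protein, by 0.11 and -0.07, and Adamts8, Adamts15, Adamts19 and Adamts20 by -0.13, 0.10, -0.16 and -0.06. The intervals of these 9 genes all included 0. Mmp11, Mmp7, Adamts8 and Adamts14 had a second, dimmer probe set, whose differences of 0.15, -0.06, 0.004 and -0.10 had the other sign than the kept one except for Mmp7.

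Of the ADAMTS-like genes, Adamtsl4, whose human counterpart is mutated in isolated displacement of the lens, read 8.24, 8.21 and 8.23 in 5XFAD and 8.60, 8.44 and 8.34 in wild type. The 5XFAD arrays were nearly equal and lay below all wild-type arrays. The difference of -0.23 ± 0.10 had an interval from -0.46 to 0.0018 and did not pass (limma, Benjamini-Hochberg adjusted p = 0.80). Adamtsl1 and Adamtsl3 differed by 0.23 ± 0.12 and 0.19 ± 0.12 with overlapping groups. Adamtsl2, which binds latent TGF-beta binding protein 1, differed by -0.08 ± 0.10 and Adamtsl5 by -0.01 ± 0.10.

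Set against the proteases array by array, the inhibitors did not separate the groups. The 4 Timp genes averaged 8.96 ± 0.05 in 5XFAD against 8.91 ± 0.07 in wild type (log2, mean ± SD, n = 3 per group). The Mmp mean was 6.03 ± 0.07 against 6.04 ± 0.07. The Adamts mean was 6.08, 6.07 and 6.05 on the 5XFAD arrays and 5.92, 5.96 and 6.04 on the wild-type arrays. All 5XFAD arrays thus lay above, by 0.02 at the closest pair. This mean includes Adamts16, Adamts5 and Adamts6, with differences of 0.75, 0.62 and 0.55. The separation is not class-wide, since 10 Adamts genes were higher and 8 lower, with a median difference of 0.02. Timp minus Mmp averaged 2.93 ± 0.07 in 5XFAD against 2.87 ± 0.14 in wild type, and Timp minus Adamts 2.89 ± 0.04 against 2.94 ± 0.10. In both contrasts the groups overlapped and the shifts of 0.06 and -0.045 were smaller than the wild-type SD. These means weigh each gene alike on a log scale and do not measure the balance of proteins.

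**Figure D5:**
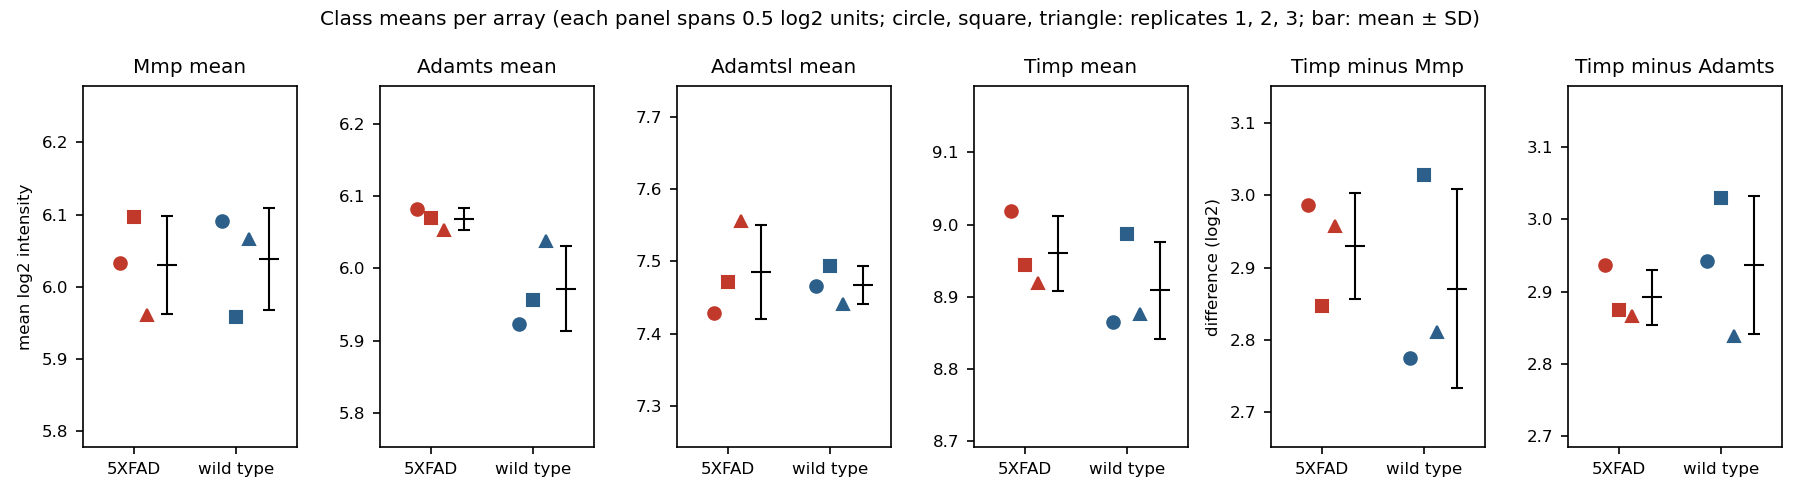
Mean log2 intensity of each class on each array, and the Timp mean minus the Mmp or Adamts mean, with 5XFAD in red and wild type in blue; circles, squares and triangles are replicates 1, 2 and 3, and the black mark is the mean with its SD. Groups overlap in every panel but that of the Adamts mean, where 5XFAD lies at 6.05 to 6.08 and wild type at 5.92 to 6.04.

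The genes that surround these proteases were taken as 7 lists of inhibitors, activators, related proteases and substrates, 65 genes measured of 69. In limma 0 of them passed over all genes, 7 were higher and 3 lower at an unadjusted p under 0.05, beside 2.89% and 3.39% of all genes. The list of other inhibitors (12 measured) had a median difference of -0.02 and 1 lower gene, Pzp, a broad protease trap related to alpha-2-macroglobulin. Pzp read 5.24, 4.74 and 4.59 in 5XFAD and 4.95, 6.33 and 5.62 in wild type, so that the groups overlapped around a difference of -0.77 ± 0.31, which was -0.42 without wild type replicate 2. Pcolce2, an enhancer of procollagen processing that the list held although it is not an inhibitor, differed by -0.20 ± 0.13.

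Plasminogen activators were the higher genes in the list for activation by the plasmin system and convertases (10 measured of 12, median -0.08). Not every gene of that list is an activator. Plat, the tissue-type activator, read 8.72, 8.53 and 8.30 against 8.23, 7.92 and 7.93, with all 5XFAD arrays above and a difference of 0.49 ± 0.14 that did not pass (limma, Benjamini-Hochberg adjusted p = 0.53). Plau, the urokinase-type activator, read 6.87, 7.47 and 7.10 against 6.83, 6.85 and 6.67, also apart, with a difference of 0.36 ± 0.15 (limma, Benjamini-Hochberg adjusted p = 0.76). The other 8 genes of the list had negative differences, none at an unadjusted p under 0.05. The surface epithelium list mean was higher in the same arrays. With that mean as a covariate Plat differed by 1.18 and Plau by -0.17. The mean does not overlap between the groups, so these values cannot separate it from genotype.

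Among the membrane-bound ADAM proteases (11 measured, median 0.13), Adam28 and Adam33 differed by 0.38 ± 0.14 and 0.28 ± 0.12. The list of astacins and other matrix proteases (11 measured, median 0.04) also held Hpse and Hyal2, which do not encode proteases. In it Lgmn, the lysosomal protease legumain, differed by 0.30 ± 0.10 and the meprin gene Mep1b by -0.31 ± 0.11. Tll2, a tolloid protease named after its values were seen, was the other lower gene, at -0.24 ± 0.11. The substrates (12 measured, median 0.04) included Fn1, encoding fibronectin, at 0.34 ± 0.11, and Eln, encoding elastin, at 0.40 ± 0.13. All 5XFAD arrays read at least 7.35 for Eln and all wild-type arrays at most 7.34, so the margin was narrow. Vcan and Acan, the versican and aggrecan genes, were looked up after the values were seen and differed by 0.63 ± 0.28 and -0.32 ± 0.16, neither at an unadjusted p under 0.05. Vcan read 6.67, 6.58 and 6.89 in 5XFAD and 5.74, 6.87 and 5.65 in wild type, with overlap through wild type replicate 2. The mean over the substrate list was 7.79 to 7.89 in 5XFAD and 7.73 to 7.78 in wild type, without overlap. The margin was narrow (7.7935 against 7.7843), and 7 of the 12 genes were higher and 5 lower. The ADAM list mean did not overlap either, at 7.0047 to 7.0373 in 5XFAD and 6.8848 to 7.0032 in wild type. Its margin was narrower still, and 6 of the 11 genes were higher and 5 lower. The fibrillin partners (7 measured, median -0.03) and the pair of enzymes that glycosylate thrombospondin repeats, Pofut2 and B3glct, held 0 genes at an unadjusted p under 0.05. Of the named genes, Mfap5 and Ltbp1 differed by 0.23 ± 0.12 and 0.29 ± 0.22, and the Ltbp1 value was 0.06 without wild type replicate 3 and 0.57 without wild type replicate 2. The glycosylation pair Pofut2 and B3glct differed by -0.002 ± 0.11 and 0.23 ± 0.15.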

How the data were processed

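Biotin-labelled total RNA of each sample was read on 1 Affymetrix whole-transcript mouse array. Sample titles gave the groups. The deposited values are log2 intensities per probe set. Per the submitters' processing notes, RMA in Affymetrix Expression Console 1.1 produced them; other steps: not given in the sources used here. They were analysed without further normalization. Of 33793 probe sets, 23521 had 1 symbol, 1814 several and 8458 none in the platform annotation, and 22180 genes remained with 1 probe set each. The comparison used lmFit and eBayes of limma 3.58.1 (R 4.3.3) with genotype as the only term, two-sided, leaving 4 residual degrees of freedom beside a prior of 5.23. P-values were adjusted by Benjamini-Hochberg across the 22180 genes, at 0.05. The step was tested on simulated data with planted differences of at least 1 log2 unit in size, larger than that of any member. How well smaller differences are found was not tested. All 53 probe sets of the members matched a RefSeq gene of GRCm38.p6, used for names, gene order and promoter windows. No window was found for Adamts4, Adamts5, Adamts6, Adamts7, Adamts8, Adamts10, Adamts15, Adamts16, Adamts19, Adamtsl1, Mmp2, Mmp9, Mmp16, Mmp17 and Mmp19.

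The members and lists were chosen with earlier results of these data known. The rule for named members took the Timps, a set known from matrix or eye disease biology, and per class the 4 of smallest p and the 3 of highest mean; related lists gave the 2 of smallest p, and App was given with its neighbours. Mmp12, Tll2, Vcan and Acan fall outside the rule and were not run under the alternatives. The alternatives tried were a block for replicate number, 2 filters on dim genes, median centring, quantile normalization, a prior that was trended and robust, the mean of probe sets, each probe set on its own, 2 marker means as covariates, and each array left out in turn.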

Additional observations from a re-analysis of the deposited data

How the results depend on the processing

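The count of 0 members past the adjusted threshold held under each of the 16 settings, with limma throughout. With the replicate block, for which same-numbered arrays showed deviations correlated at -0.06, -0.05 and 0.13 and 2 of 6 arrays correlated best with their own number, 4 members were at an unadjusted p under 0.05 in place of 5, and the block changed no call. That count was 3 with the surface epithelium covariate (Adamts3, Mmp14 and Mmp28, of which Mmp28 alone is among the 5) and 3 to 8 with an array left out. The count with a fold of at least 1.5 was 1 without the dimmest 50% of genes, where Adamts16 was left out, and 1 to 2 with an array left out. Medians moved with covariates, to -0.050 (muscle) and 0.13 (surface epithelium) for Adamts, -0.14 for Adamtsl and 0.26 for Timp (both surface epithelium); with an array left out they ran from -0.0085 to 0.11 (without wild type replicate 3) for Adamts, -0.062 (without 5XFAD replicate 2) to 0.025 for Adamtsl and -0.11 (without wild type replicate 2) to 0.023 for Mmp, and from 0.043 (without 5XFAD replicate 1) to 0.13 (without 5XFAD replicate 3) for Timp. The fold count and medians were not run for every probe set on its own. Values with the surface epithelium covariate cannot separate that list from genotype, since its mean does not overlap between the groups.

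Of 625 alternative values for the 40 named genes 0 passed and 36 changed sign, 20 of them with an array left out and 16 with a covariate; the cause was not tested. With the muscle covariate these were Timp2 (-0.012), Mmp3 (-0.090), Adamts4 (-0.024) and Adamts18 (-0.17). With the surface epithelium covariate they were Mmp2 (0.15), Mmp9 (-0.040), Adamts16 (-0.16), Adamts14 (-0.018), Adamts9 (0.33), Adamtsl1 (-0.0075), Adamtsl3 (-0.14), Pzp (0.38), Pcolce2 (0.25), Plau (-0.17), B3glct (-0.20) and Pofut2 (0.23). With an array left out the ranges were -0.30 to 0.50 for Mmp3, -0.073 to 0.16 for Adamts18, -0.062 to 0.025 for Adamtsl5, -0.19 to 0.23 for Adamts1, -0.24 to 0.046 for Adamts17, -0.12 to 0.14 for Adamts9, -0.068 to 0.077 for Pofut2, -0.0014 to 0.069 for Timp2 and -0.048 to 0.16 for Adamts4. Of the members, 17 of 49 lay under percentile 40 of all gene means, and how far background limits them was not measured.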
